A study of Mus musculus with 6 samples.

Results

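The wide AGO2 target peaks at the 3′ ends of protein-coding genes numbered 989 of the 2197 peaks deposited for the series (45.0%, exact Clopper-Pearson 95% interval 42.9 to 47.1), and lay in 529 genes. They were chosen by width and position: wider than 30 nt, off the mitochondrial genome, not in a small noncoding RNA gene, with the midpoint in exactly 1 protein-coding gene span and in the last 10% of that span in the direction of the peak's strand. Width and nearness to the end are therefore described here with no test. AGO2-bound RNA was collected from cortex of mice at postnatal day 14 that carried VGLUT2-Cre and a conditional Spy3-AGO2 allele, and the labels name pyramidal neurons as the cell type. The peaks bear on the target group (2 libraries). A group of AGO2-bound miRNA libraries and a group of input libraries from whole lysate (2 each) carry the same genotype and age. The tag is present only in cells that expressed the Cre driver, and the labels do not say whether replicates came from separate animals. Each peak has a position, a name and a strand but no value in any library, so the depth behind it is unknown, its replicate error cannot be given, and nothing below is a test between samples.

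Argonaute proteins hold a miRNA, whose seed (bases 2 to 8) pairs with complementary bases of a target RNA and leads to its repression or decay. In animals most studied target sites lie in the 3′ untranslated region, the part of the mRNA after the coding sequence, and brain mRNAs are known for long ones. The table of genes used here gives only the first and last base of each gene on GRCm38.p6 (the assembly of mm10), so a peak near the end of a span is placed by distance and not by exon.

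Sequence was at hand for 3 of the 989 peaks, which overlap RefSeq promoter windows of neighbouring genes (GRCm38.p6): 2 peaks of Gsk3a, a kinase gene, with 50 and 15 bases, and 1 peak of Cadm2, a synaptic adhesion gene, with 63 bases. These 128 bases were searched on the strand of the peak for 7-mers complementary to bases 2 to 8 of 219 mature miRNAs counted at least 10 times in both miRNA libraries, which make 177 distinct 7-mers. The Gsk3a peaks held none of them, which says only that these letters are absent from the bases at hand. The Cadm2 peak held 1, CTTTATA, the complement of the seed of miR-340-5p, which had 50 and 71 counts (0.0748% and 0.0938% of each library). The pair is shown because it is the only match found, with the 7-mer and the seed in capitals, 5′ to 3′. The 30 bases shown, which hold the 7-mer, lie at chr16:66656888-66656917 on the minus strand:

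Cadm2 site: taacatttttatCTTTATAcaaacttactt

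miR-340-5p: uUAUAAAGcaaugagacugauu

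Of 32851 promoter windows, 0.441% held CTTTATA in their first 63 bases on the strand of the gene and 0.794% on either strand. Those windows are not gene ends, their base composition was not compared with that of the peaks, and the rates are for this 7-mer alone. With 177 distinct 7-mers searched, the match is a description and not evidence of a bound site.

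Nearly all peaks with a known gene strand lay on it, but the rule bears on this share. Position was read along the strand of the peak, so an opposite-strand peak could be counted only near the start of its gene. A gene strand could be read from the RefSeq promoter windows for the genes of 745 of the 989 peaks, and 744 of these (99.9%, exact 95% interval 99.3 to 100.0) lay on that strand. The exception was 1 minus-strand peak of 31 nt in Slc2a1, the glucose transporter gene of the blood-brain barrier (chr4:119109246-119109276). Slc2a1 runs on the plus strand, so this peak lies near its first base, 516 nt into the span, and not at its 3′ end. Among the 299 wide peaks that lay in a single protein-coding span before its last 10%, 171 of 180 with a known gene strand matched it (95%, exact interval 90.7 to 97.7). No gene had peaks of both strands among the 989, and 520 of the peaks were plus-strand and 469 minus-strand. For the genes of the other 244 peaks no strand was at hand. At 44 peaks a noncoding gene or pseudogene span overlapped the midpoint as well.

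The 989 peaks were 76.8% of the 1288 wide peaks in a single protein-coding span (exact 95% interval 74.4 to 79.1). Of the 282 narrow peaks, 30 nt or less, in such a span, 47 (16.7%, interval 12.5 to 21.5) lay in its last 10%. These intervals cover counting only and treat peaks of a gene as independent.

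Most of the peaks sat far closer to the gene end than the rule required. The median midpoint lay 672 nt from the end (95% interval 593.5 to 789), or 1.12% of the span, with quartiles at 190.5 and 1958 nt. The last 1% of the span held 465 peaks (47.0%), the next 1% held 167 (16.9%), the part from 2 to 5% held 238 (24.1%), and the part from 5 to 10% held 119 (12.0%). In nucleotides, 256 peaks of 238 genes lay within 200 nt of the end, 322 peaks lay from 200 to 1000 nt, 266 from 1000 to 3000 nt, 70 from 3000 to 5000 nt and 62 from 5000 to 10000 nt. The remaining 13 peaks, of 9 genes, were at least 10000 nt from the end.

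**Figure D1:**
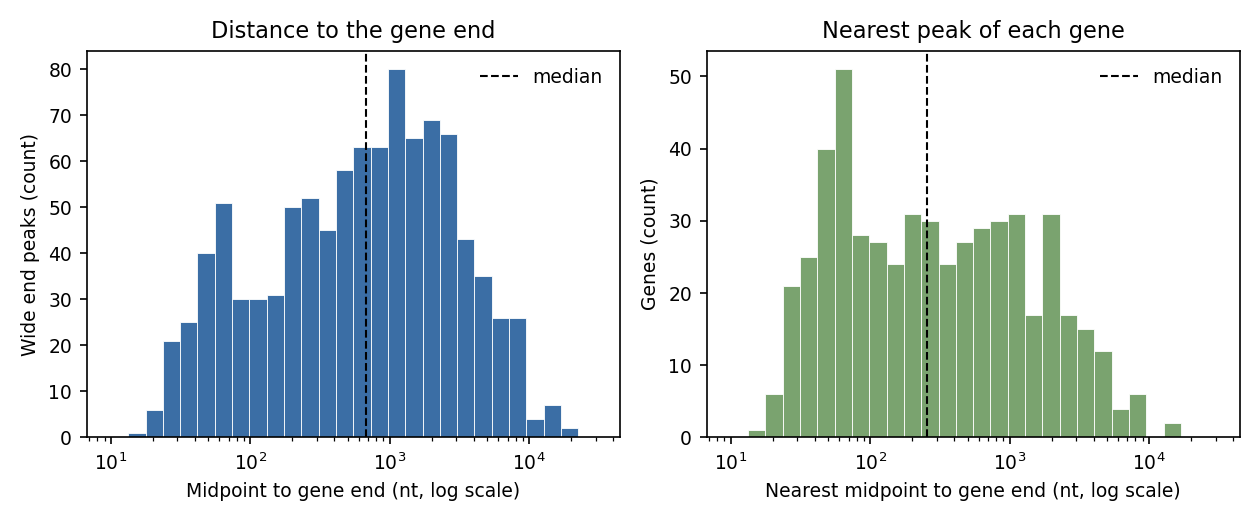
Number of wide end peaks (left) and of genes (right) by distance from the peak midpoint to the annotated gene end, in nt on a log scale; the right panel takes the nearest peak of each gene, and dashed lines mark the medians (672 and 254 nt). The peaks spread over 17 to 22139 nt, and the nearest peaks of genes gather in the bins below 100 nt.

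A group of peaks abutted the last annotated base. The downstream edge lay within 20 nt of the gene end for 97 peaks and within 50 nt for 163. Nearest were the peaks of Ndufs7 (midpoint 17 nt from the end), a subunit of respiratory complex I, of Vamp2 (18 nt), the SNARE protein of synaptic vesicles, of Chst1 (20 nt), a carbohydrate sulfotransferase, and of Penk (22 nt), which encodes the enkephalin precursor. In Tuba1a, an alpha-tubulin gene, the peak at chr15:98949844-98949910 ran 3 nt past the annotated end, the only 1 of the 989 to do so. Per gene, the nearest peak had a median distance of 254 nt (95% interval 204.5 to 320), and in 238 of 529 genes (45.0%) it lay within 200 nt.

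The farthest peaks belonged to long neuronal genes. A peak of Dclk1, a microtubule-associated kinase, lay 22139 nt before the end, peaks of Grin2b, an NMDA receptor subunit, 18981 and 16462 nt, and a peak of Slc8a1, a sodium-calcium exchanger, 15533 nt. Distance and span had a Spearman rho of 0.44 over the 989 peaks, which share genes, and a limit at 10% of the span by itself lets longer genes hold farther peaks. The limit also divides short genes. Of the 299 wide peaks before the last 10%, 139 lay within 5 kb of the end. The median span behind all 299 was 18.5 kb, against 70.6 kb behind the 989. Just inside the position limit were a peak of Slc1a2 (9.98% of the span) and 1 of Tbr1 (9.92%), a cortical transcription factor gene. Just outside were 1 of Ywhah (10.06%), a 14-3-3 protein gene, and 1 of Bmyc (10.08%).

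Peak width ran from 31 to 407 nt. The median was 64 nt (95% interval 62 to 66) and the quartiles were 46 and 95 nt. Widths over 100 nt were reached by 209 peaks (21.1%) and over 200 nt by 15 (1.52%). Together they covered 75260 bases, 53.8% of the 139956 bases under all deposited peaks. The widest was a peak of Shank1, a scaffold of the postsynaptic density, with 407 nt (chr7:44357081-44357487), 2810 nt before the end. It was followed by peaks of Atp2b2, a plasma membrane calcium pump, with 282 nt, Sptan1, the alpha chain of brain spectrin, with 255 nt, and Map1b, a microtubule-associated protein, with 247 nt. The other members of the widest 8 belonged to Cx3cl1 (238 nt), the neuronal chemokine fractalkine, Sptbn1 (235 nt), a beta-spectrin, Pcp4 (234 nt), a calmodulin regulator, and Clstn1 (228 nt), a calsyntenin. Those of Sptan1, Cx3cl1 and Sptbn1 ended 4, 6 and 6 nt before the gene end.

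**Figure D2:**
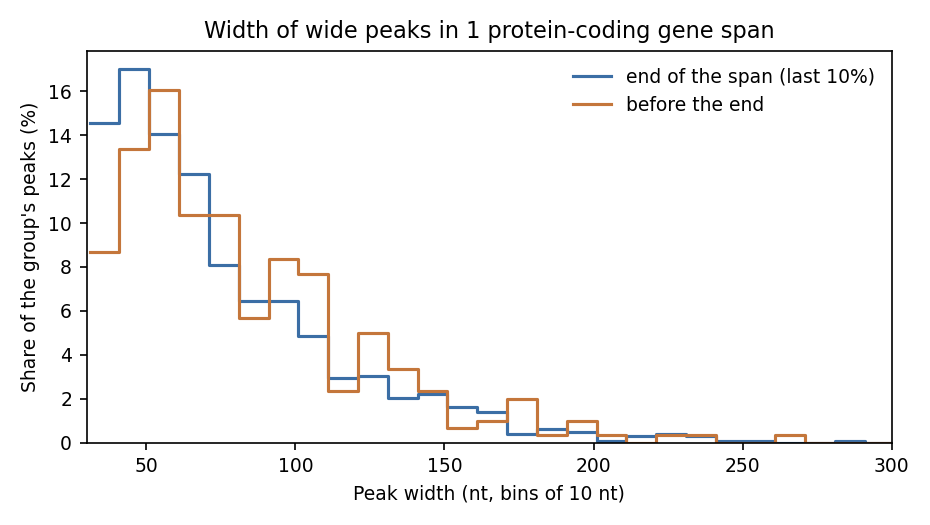
Share of peaks per 10 nt of width for wide peaks in the last 10% of a single protein-coding span (989 peaks) and for those before it (299 peaks); the axis stops at 300 nt and leaves out the 407 nt peak of Shank1. Both groups have their highest shares below 70 nt, and 14.6% of the end peaks against 8.70% of the others are 31 to 40 nt wide.

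The median width was 61.5 nt within 200 nt of the end, 61.5 nt from 200 to 1000 nt, 73.5 nt from 1000 to 3000 nt, 60.5 nt from 3000 to 5000 nt and 63.5 nt from 5000 to 10000 nt. It was highest, 92 nt, for the 13 peaks farther away. The Spearman rho of width with distance was 0.09 over the 989 peaks. Wide peaks before the last 10% had a median of 72 nt (95% interval 66 to 75), with 77.9% over 50 nt against 68.5% of the end peaks. The 2 groups share 89 genes, and this difference was not tested. At the lower limit, Ndufs7, Tmem170b, a membrane protein gene, Acvr1b, an activin receptor, and Brd2, a bromodomain protein, each had a peak of 31 nt. They were tied with peaks of other genes, among them Slc1a2, Slc2a1 and Cpe. The nearest peaks outside the limit were of Lrrc4b (30 nt), a synaptic adhesion gene, and Atp1b1 (29 nt).

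Peaks were unevenly shared among genes. Of the 21887 nuclear protein-coding genes in the table, 2.42% had at least 1 of these peaks and 0.813% at least 2. Of the 529 genes with a peak, 351 (66.4%, exact 95% interval 62.1 to 70.4) had 1, 89 had 2, 30 had 3, 21 had 4 and 38 had 5 or more. The last 38 genes held 286 peaks (28.9%), and the 20 genes with the most held 191 (19.3%). The last places of these 20 were tied: 9 genes had 6 peaks, and the 4 with the smallest median distance to the end were taken (Cpe, Rtn1, Arf3 and Vsnl1), which leaves out Ppp3r1, Clstn1, Dpysl2, Ppp3ca and Atp2b1. Number and span had a Spearman rho of 0.10 over the 529 genes, while genes with a peak had longer spans than the table as a whole (median 58.7 against 17.2 kb). Peaks that were alone in their gene lay nearer the end than the others (median 382 nt, interval 284 to 467, n = 351, against 983 nt, interval 815 to 1114, n = 638). Their median widths were 61 and 66 nt. The 638 include every peak of their genes and not only the nearest. The nearest peak per gene had a median of 254 nt over all 529 genes, below the 382 nt of lone peaks. By that measure genes with 1 peak were the farther ones, but the smallest of several distances tends to lie below a single one by construction. The 529 genes also include the 351 with 1 peak, so no conclusion is drawn from this order. These differences were not tested.

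Slc1a2, the glutamate transporter that clears transmitter mainly into astrocytes, stood alone with 38 peaks. They were 31 to 162 nt wide (median 57.5 nt), lay 0.044 to 13.2 kb before the end, and covered 2628 bases, 19.8% of the stretch between the outermost edges. Next came Gpm6a, a neuronal membrane glycoprotein that shapes filopodia, with 14 peaks (median width 90.5 nt), 10 of them in the last 3 kb of the gene. Syt1, the calcium sensor of vesicle release, had 13 peaks from 0.057 to 6.85 kb before the end. Atp2a2, which pumps calcium into the endoplasmic reticulum, and Rab6b, a Golgi transport GTPase of brain, had 10 each, with outermost midpoints 4.67 and 3.80 kb from the end.

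Within this set the peaks were packed to different degrees. Ywhaz, a 14-3-3 adaptor protein, had 8 peaks that covered 61.7% of their stretch, the highest share of the 20 genes, and the one nearest the end lay 560.5 nt from it. App, the amyloid precursor protein, had 7 over 45.4% of a stretch from 1839 to 2651 nt before the end. Nptn, an adhesion protein partnered with calcium pumps, had 7 over 43.9%, and Vsnl1, a neuronal calcium sensor, 6 over 43.8%. Snap25, the SNARE protein of the presynaptic membrane, had 8 over 40.5%, and Atp1b1, the beta subunit of the sodium pump, 7 over 40.8%. Ndrg4, a brain-enriched gene of the NDRG family, had 7 over 30.6%.

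In other genes of the 20 the peaks covered less of their stretch. Grin2b had 7 over 2.49% of its stretch, from 0.109 to 19.0 kb. Rtn1, a reticulon that shapes the endoplasmic reticulum, had 6 over 3.78%, and its relative Rtn3 7 over 8.46%. Tspan7, a neuronal tetraspanin, had 8 over 6.25%, with 6 of them in the last 1 kb, a median gap of 40 nt and the farthest 11029 nt from the end. Mef2c, an activity-dependent transcription factor, had 9 over 7.05%, all at least 2013 nt before the end. Cpe, the carboxypeptidase that matures neuropeptides, had 6 over 7.55%, and Arf3, a Golgi GTPase, 6 over 24.9%.

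**Figure D3:**
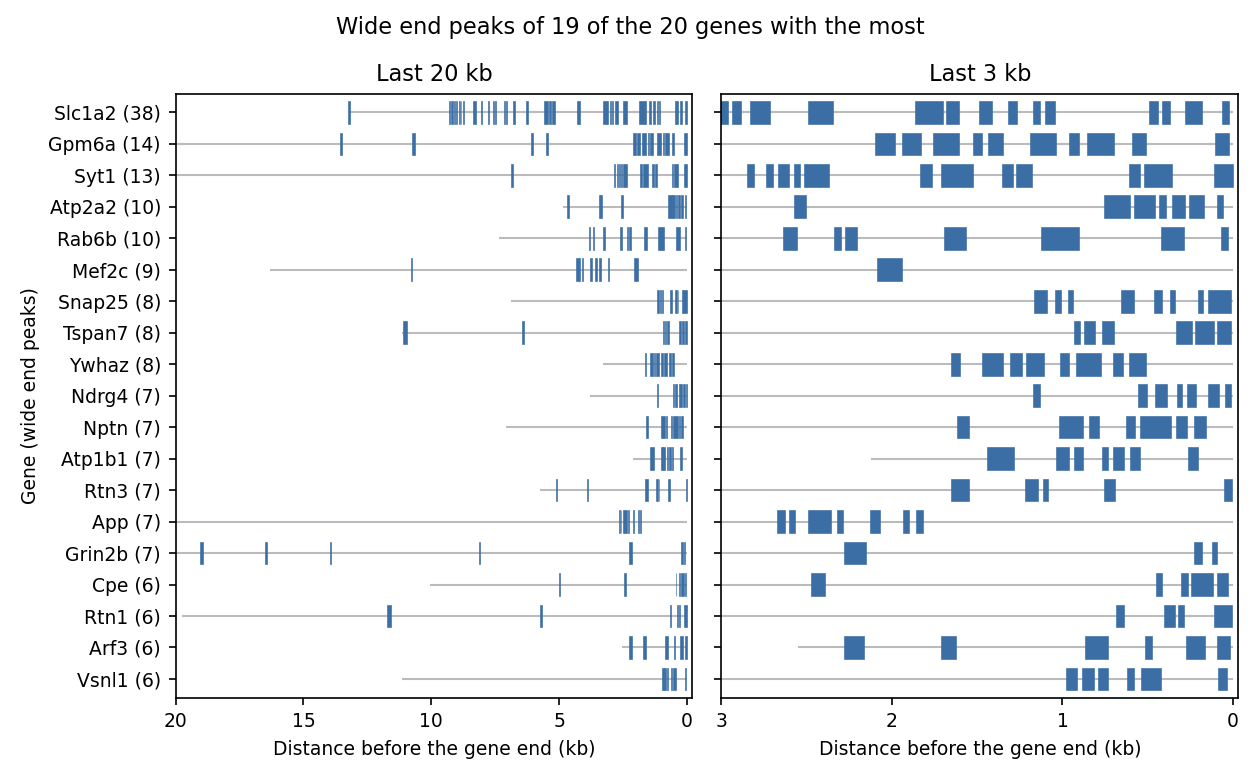
Wide end peaks of 19 of the 20 genes with the most, drawn to scale as blue boxes by distance before the annotated gene end (kb; last 20 kb left, last 3 kb right); grey lines show the last 10% of each span, and the number of peaks follows the gene name. Slc1a2 holds 38 peaks over 13.2 kb, Ywhaz and App hold compact runs away from the last base, and Grin2b holds scattered ones.

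Neighbouring peaks of a gene were often close. The 178 genes with 2 or more held 460 neighbouring pairs, with a median gap between edges of 166 nt (95% interval 141 to 221) and quartiles at 43.8 and 593 nt. Gaps were under 50 nt in 125 pairs (27.2%), under 100 nt in 181 (39.3%) and over 1000 nt in 86. The longest, 17154 nt, was in Dclk1. No gap was under 21 nt, and the same limit held for all 2155 neighbouring pairs of the deposited list on 1 strand, of which 20 were at exactly 21 nt. How the authors joined or divided signal is not stated in the labels, and its part in the shortest gaps was not tested.

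Peak names bear on these gaps too. The names number the peaks by position along each strand and run to 14469, above the 2197 listed. Between 247 of the 460 neighbouring pairs (53.7%) numbers were skipped. Some skipped numbers belong to deposited peaks that the width limit left out, such as those of 29 nt in Atp1b1 and 30 nt in Lrrc4b. How many skipped numbers are of this kind, and how many are absent from the deposited list, was not counted here. For the 213 pairs with consecutive numbers the median gap was 40 nt (95% interval 36 to 47), against 446 nt (363 to 537) where numbers were skipped. Since the numbers follow position, a skipped number would be a peak between the pair, so a longer gap there follows from the numbering.

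The smallest median gaps among the 59 genes with 4 or more peaks were in Hivep2, a zinc finger transcription factor, and Sparcl1, a matricellular protein of astrocytes, both with 26 nt over 4 peaks, but their gaps reached 255 nt in Hivep2 and 56 nt in Sparcl1. Hmgcs1, an enzyme of cholesterol synthesis, had a median gap of 27 nt over 4 peaks, with none above 51 nt. Atp2a2 had 34 nt over 10 peaks and Vsnl1 37 nt over 6, with gaps up to 1744 and 334 nt. Slc1a2 had a median gap of 88 nt over its 38 peaks, with gaps from 21 to 3870 nt.

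**Figure D4:**
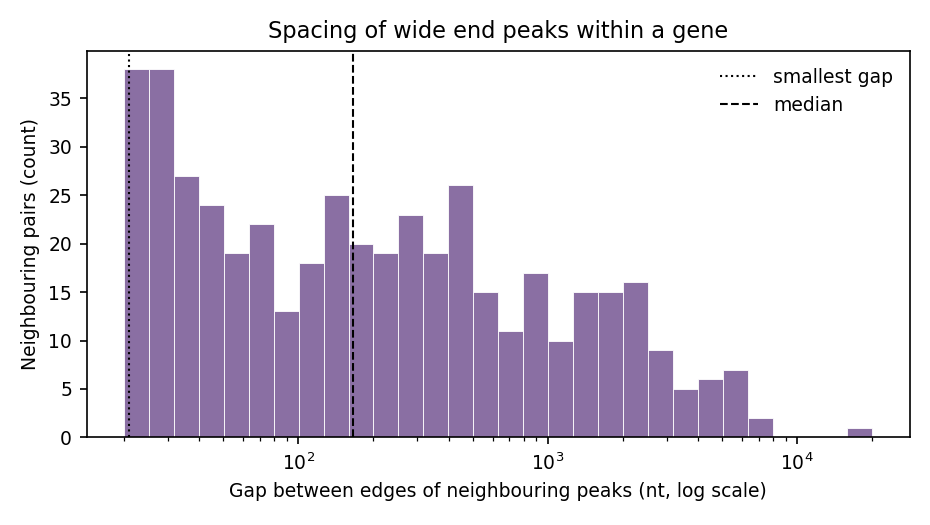
Number of neighbouring pairs of wide end peaks by the gap between their edges (nt, log scale), over 460 pairs in 178 genes; lines mark the smallest gap (21 nt) and the median (166 nt). The counts are highest in the bins nearest the smallest gap.

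Gene functions were described with 14 function lists and 6 marker lists that hold 681 distinct genes, all matched to the table. Of these, 164 (24.1%) had a wide end peak, beside 2.42% of all nuclear protein-coding genes. The lists name well-known brain genes and expression was not measured here, so a share above that background cannot be ascribed to a function. Each list holds only some genes of its class, so counts below are of listed genes and not of the class. The median number of peaks per gene with a peak was 1 over all 529 genes. Of the 529 genes, 365 were on no list, 9 of the 20 with the most peaks among them, while of the 5 genes left out at the tie 4 were on a list.

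Ion pumps and transporters, which keep the gradients that neurons spend, had the highest share, 19 of 36 genes (52.8%), 10 of them with 2 or more peaks. Without Slc2a1, whose 1 peak lies near the gene start on the opposite strand, 18 of 36 had a peak. They were led by Slc1a2 (38), Atp2a2 (10), Atp1b1 (7) and Atp2b1 (6), a plasma membrane calcium pump. Of that pump's family 3 of 4 listed genes had a peak, and of the sodium pump subunits 4 of 6. Calcium and calmodulin signalling followed with 16 of 33 genes (48.5%). All 3 listed subunit genes of calcineurin, the calcium-dependent phosphatase, had peaks, 6 in Ppp3ca, 6 in Ppp3r1 and 2 in Ppp3cb. Of the 4 CaMKII subunit genes, Camk2a had 2 peaks and the other 3 had none.

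Presynaptic release genes had a peak in 15 of 40 (37.5%), 11 of them with 2 or more, and a median of 3 peaks per gene with a peak. Syt1 (13) and Snap25 (8) led, followed by Bsn (4), a scaffold of the active zone, and Sv2b (4), a vesicle glycoprotein. Both complexin genes, regulators of SNARE assembly, had peaks, 3 in Cplx2 and 2 in Cplx1. Vamp2 had 2, both within 77 nt of the gene end. Postsynaptic receptors and scaffolds had a peak in 18 of 46 (39.1%), among them Grin2b (7) and the GABA-A receptor gene Gabrb2 (5). Among receptor families, 3 of 9 GABA-A, 2 of 4 AMPA and 2 of 4 NMDA receptor subunit genes on the list had one. Voltage-gated ion channels had a peak in 8 of 37 (21.6%). Scn2a, a sodium channel of excitatory neurons, had 5 and Kcna2, a potassium channel, 2, and the other 6 genes, among them the calcium channel subunit gene Cacna2d1, had 1 each. Kcnh5, a potassium channel gene not on the list, had 2.

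Cytoskeleton genes had a peak in 17 of 41 (41.5%), 13 of them with 2 or more, and the median width of their peaks was 84 nt, beside 64 nt over all 989. The list of RNA-binding proteins and miRNA machinery had a higher median width, 89.5 nt, and that of trafficking genes 80 nt. The other function lists had medians from 45 to 66 nt. Dpysl2, a tubulin-binding protein of growing axons, had 6, Dclk1 and Map1b 5 each, and Ank2, an ankyrin that anchors membrane proteins, 4. Of 7 tubulin genes 3 had a peak, and of 4 neurofilament and internexin genes 0. Trafficking genes had a peak in 13 of 44 (29.5%), led by Rab6b (10), Arf3 (6), Kif1a (5), the motor of synaptic vesicle precursors, and Kif1b (3). Adhesion and axon guidance genes had a peak in 12 of 48 (25%), 9 of them with a single one. Cadm2 had 3, Epha4, a guidance receptor, 2, and Cntn1, a contactin, 1.

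Transcription and chromatin genes had a peak in 11 of 50 (22.0%), 9 of them with a single one. Mef2c had 9 and Tcf4, a basic helix-loop-helix factor, 3, while the chromatin remodelling subunit Arid1a and Auts2 had 1 each. Their peaks lay far from the end (median 3069 nt), 9 of the 21 in Mef2c. RNA-binding proteins and miRNA machinery had a peak in 10 of 54 (18.5%). Among them were Pum2 (5), a repressor that binds mRNA ends, Celf4 (3) and Ddx6 (2), a helicase of repressed mRNAs, while 0 of the 4 Argonaute genes had one. In the list of PI3K, mTOR and MAPK pathway members, 10 of 46 (21.7%) had a peak, among them both genes of the kinase GSK3 (Gsk3b 4, Gsk3a 2) and Pik3r1 (2), a regulatory subunit of PI3K. Of the listed ubiquitin genes, 6 of 45 (13.3%) had a peak: Fbxl16 and Ubr3 had 2 each, and Trim9 and Ube2g1, with 2 others, 1 each. Ubiquitin genes outside the list were not counted, among them the ligase gene Pja2 with 4 peaks.

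The 2 lists of ribosomal and respiratory chain genes had shares near the background, with intervals that reach well above it. They do not stand for all housekeeping genes, and Actb, on the cytoskeleton list, had 2 peaks. Ribosomal proteins and translation factors had a peak in 1 of 44 genes (2.27%, exact 95% interval 0.0575 to 12.0), Eif4g3 with 2, and 0 of 36 ribosomal protein genes had one. The list of nuclear respiratory chain genes had a peak in 1 of 34 (2.94%, interval 0.0744 to 15.3), Atp5a1 with 1. Genes outside that list were not counted, among them Ndufs7, the complex I gene named above, which had a peak of 31 nt. Both shares lie beside 2.42% of all nuclear protein-coding genes.

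**Figure D5:**
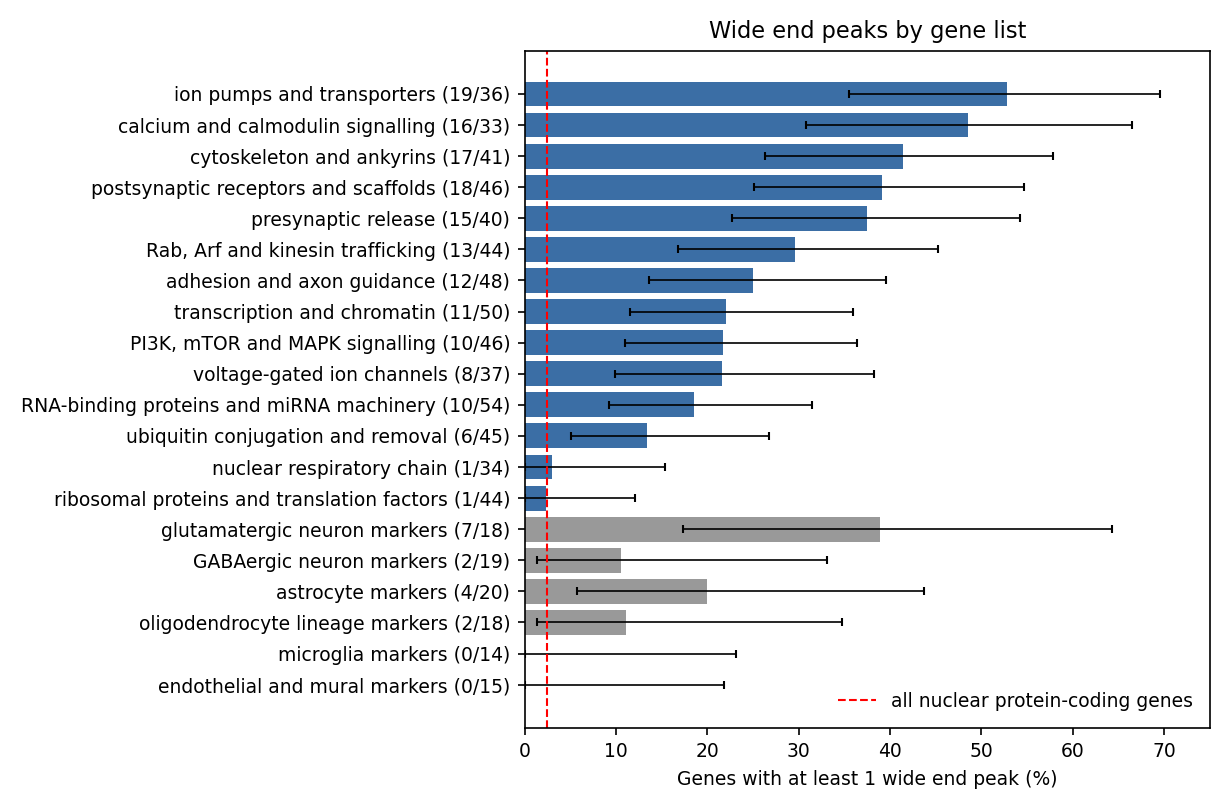
Share of genes with at least 1 wide end peak in each list (bars, with exact 95% intervals over genes; blue for function lists, grey for cell type markers; counts after the names), beside the 2.42% of all nuclear protein-coding genes (dashed line). Pumps and calcium signalling genes reach 52.8% and 48.5%, and the respiratory chain and ribosomal lists are at 2.94% and 2.27%.

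Markers of cell types were set beside the labelled one. Glutamatergic neuron markers had a peak in 7 of 18 genes (38.9%, exact 95% interval 17.3 to 64.3), among them Sv2b (4), Camk2a and Nptx1 (2 each), and the vesicular glutamate transporter gene Slc17a7, Nrgn and Tbr1 (1 each). The gene whose promoter drives the Cre, Slc17a6 (VGLUT2), had no wide end peak. GABAergic markers had a peak in 2 of 19 (10.5%), among them the neuropeptide gene Sst with 1. Astrocyte markers had a peak in 4 of 20 (interval 5.73 to 43.7%), Slc1a2 (38), Sparcl1 (4), Apoe (2) and Glul (1), and 2 of 18 markers of the oligodendrocyte lineage (11.1%) had one, Mbp of myelin (1 peak) being among these. Microglia markers (0 of 14, upper limit 23.2%) and endothelial and mural markers (0 of 15, upper limit 21.8%) had none. The 4 astrocyte marker genes held 45 of the 989 peaks. Whether RNA of other cells adds to the list was not tested, and in bulk tissue the number of cells of a type and the RNA per cell cannot be told apart.

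Few wide peaks were found just past annotated ends, but only genes with a known strand could be searched. Of 62 wide peaks in no gene span, 2 lay within 1000 nt and 10 within 5000 nt downstream of such a protein-coding gene on their strand. Genes with no strand at hand were missed, so both counts are lower limits. The nearest one found was a peak of 122 nt, 269.5 nt past the end of Sv2a, a synaptic vesicle glycoprotein gene (chr3:96195392-96195513).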

How the data were processed

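Complexes of tagged AGO2 were captured on a SpyCatcher3 resin and size-selected on a gel before RNA extraction, per the labels' protocols. Tools in the submitters' processing notes, listed without roles, are STAR 2.5.2a and Bowtie2 2.4.2, cutadapt 2.10 with UMI-tools, deepTools 3.1.3, and DESeq2 1.36.0, on mm10. How peaks were found, whether replicates were pooled and whether the input was used is not given in the sources used here. A deposited score of 0 stands beside every peak. The miRNA values are raw counts as deposited, 66854 and 75658 in total, from files whose name says that duplicate reads were kept.

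Peaks were placed by midpoint on gene spans of GRCm38.p6 with Python 3.11.15 and pandas 2.3.3, and coordinates count from 1. Gene strands came from RefSeq promoter windows. Intervals are exact binomial ones, for medians by order statistics (scipy 1.17.1), and cover counting only. Placement and gaps were tested on simulated data. Of the planned sequence analysis, only the 3 peaks with promoter bases could be read, since no genome was used here.

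The members, lists and rules were chosen with earlier results of these data known, and list genes are not independent evidence. The text names the 20 genes with the most peaks, the 8 widest peaks, 4 of the narrowest and the 4 nearest. It also names up to 4 genes per list, the 5 smallest gaps and 2 peaks on each side of each limit. Some genes that meet this rule are not reported here. Further names were picked after seeing values. The alternatives tried were other limits on width and position, peak edges, overlapping spans, leaving out Slc1a2 and, added after seeing the data, peaks on the known gene strand.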

Additional observations from a re-analysis of the deposited data

How the results depend on the processing

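Of 52 values recomputed under 9 alternative settings, 49 stayed within 1.5 times the count or within the 95% interval of the reported value. Above 50 nt in place of 30 nt, the median width was 80 nt and the median gap 260 nt, since shorter peaks are left out. In the last 5% of the span the median distance was 560 nt, by construction. The number of peaks ranged from 677 (wider than 50 nt) to 1073 (last 20%), and stayed at 951 without Slc1a2. No paired analysis was possible because the peaks have no values per library. Depth behind a peak is unknown, and expression was not measured, so a gene without a peak is not shown to lack AGO2 binding.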
